A study of Homo sapiens with 12 samples.

Results

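DAB2IP, DLC1, KLF2, FOXC1, BMPR1B, RARB, PEBP1, FBXO32 and RAP1GAP are 9 tumour suppressor genes that earlier studies reported as silenced by EZH2. The list was drawn up from those reports, with earlier results of these data known, and every probe assigned to any of them was included, also those at background. The array carries 18852 genes with a symbol in that table. Of the 9 genes, 7 had a probe, with 15 probes among the 48803 on the array. DAB2IP and FOXC1 had none in the probe-to-gene table used here and are named only. Of the 15 probes, 6 passed the filter on dim probes and were tested, and these represent the 5 genes RAP1GAP, DLC1, PEBP1, FBXO32 and KLF2. The other 9 probes, among them all probes of BMPR1B and RARB, lay at or near background and are described without a test.

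RNA was measured in 12 samples of SKOV3ip, a subline of the human ovarian carcinoma line SKOV3, with 1 Illumina bead array each. The 3 groups of 4 arrays were cells transfected with an siRNA against EZH2, cells transfected with a scrambled control siRNA, and cells that were not transfected. The source labels call the line SKOV3, the extraction protocol speaks of tissues, and the array is named HumanHT-12 in one label and Human-6 version 3 in another. The sources used here do not give the siRNA sequence or the time after transfection. Whether a group's 4 arrays came from separate cultures is not stated either, so a p-value reflects array-to-array spread that may be technical.

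Polycomb repressive complex 2 (PRC2) keeps genes silent by methylating lysine 27 of histone H3, and EZH2 is its catalytic subunit. PRC2 tends to settle at promoters rich in CG dinucleotides. In tumours with much EZH2, growth inhibitors such as the listed genes have been reported as repressed, among them brakes on the small GTPases Ras and Rap, an inhibitor of the Raf kinase, and receptors for bone morphogenetic proteins and retinoic acid.

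Promoter sequences in the RefSeq table for GRCh38.p14 were found for 6 of the 9 genes, with 13 start sites, and comprise the 250 bases before a start. DLC1, FBXO32 and RAP1GAP are named only. Across all 35116 promoters of the table the median was 11 CG dinucleotides, and 6 of the 13 listed promoters exceeded it. Of the 4 sequences shown, KLF2 and PEBP1 belong to genes measured above background on all 12 arrays. BMPR1B belongs to a gene measured at or near background. All 3 had more CG dinucleotides than the median. The RARB sequence holds the retinoic acid response element through which this receptor gene answers its own ligand. Capitals mark CG dinucleotides in the KLF2, PEBP1 and BMPR1B promoters. In the RARB promoter, capitals mark the response element alone. All lie on the plus strand and run 5′ to 3′.
KLF2, chr19:16324576-16324825: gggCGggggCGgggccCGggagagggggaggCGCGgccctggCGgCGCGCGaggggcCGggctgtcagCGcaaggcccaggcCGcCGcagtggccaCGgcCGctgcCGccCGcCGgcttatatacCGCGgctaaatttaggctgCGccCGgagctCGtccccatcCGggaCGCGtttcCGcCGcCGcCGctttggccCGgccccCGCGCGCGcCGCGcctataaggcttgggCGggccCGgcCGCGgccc
PEBP1, chr12:118135874-118136123: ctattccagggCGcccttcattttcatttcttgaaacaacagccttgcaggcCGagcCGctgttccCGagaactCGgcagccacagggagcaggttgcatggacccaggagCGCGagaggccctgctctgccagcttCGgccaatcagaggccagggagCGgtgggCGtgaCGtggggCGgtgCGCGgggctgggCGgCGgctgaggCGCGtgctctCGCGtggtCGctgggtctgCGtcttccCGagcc
BMPR1B, chr4:94757705-94757954: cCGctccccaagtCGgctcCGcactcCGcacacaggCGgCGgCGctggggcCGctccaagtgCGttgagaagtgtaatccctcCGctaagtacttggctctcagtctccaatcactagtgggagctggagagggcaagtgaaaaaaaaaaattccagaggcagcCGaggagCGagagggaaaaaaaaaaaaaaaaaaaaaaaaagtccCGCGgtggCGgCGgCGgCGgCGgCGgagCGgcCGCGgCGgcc
RARB, chr3:25428013-25428262: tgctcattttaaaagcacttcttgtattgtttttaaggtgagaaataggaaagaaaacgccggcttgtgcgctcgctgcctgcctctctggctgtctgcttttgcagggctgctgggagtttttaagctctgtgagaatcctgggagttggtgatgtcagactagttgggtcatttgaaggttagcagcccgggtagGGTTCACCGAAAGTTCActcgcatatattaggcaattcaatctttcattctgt
The KLF2 promoter held 41 CG dinucleotides, and 1.73% of all promoters held as many or more. PEBP1 held 23, a count reached by 25.8%. The first of 3 BMPR1B start sites, shown here, held 24, a count reached by 23.7%, and the other BMPR1B start sites held 2 and 7. The RARB promoter shown, the third of its 4 start sites, held 7, a count reached by 58.9%, while the first held 28 and the others 1 each. Its response element (chr3:25428210-25428226) began 53 bases before the start. It was found by searching both strands for GTTCA, any 6 bases and GTTCA again, a pattern that occurred in 1 of the 13 listed promoters and in 17 of all promoters (0.0484%). A match is a run of letters and not a measured binding site.

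EZH2 itself was lower with its siRNA. All levels are log2 intensities after normalisation, so that a difference of 1 is a doubling. The brightest EZH2 probe (ILMN_1708105) had 6.51, 6.80, 6.95 and 6.45 with EZH2 siRNA, against 7.47, 7.67, 7.73 and 7.36 with control siRNA, and 7.95, 7.77, 7.86 and 8.36 in untransfected cells. The 3 groups did not overlap. Relative to control siRNA the EZH2 siRNA arrays were 1.84-fold lower (log2 fold change −0.88, SE 0.14, adjusted p = 0.00145 in limma), and relative to untransfected cells 2.48-fold (adjusted p = 4.20e-06). The other EZH2 probes gave −0.67 (adjusted p = 0.0186) and −0.53 (adjusted p = 0.0620) against control siRNA. Between control siRNA and untransfected cells the difference was −0.43 at the brightest probe (adjusted p = 0.0897) and −0.62 at the second (adjusted p = 0.0202). Both siRNAs were transfected, so loss of EZH2 and other effects of that siRNA cannot be told apart.

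The arrays differed in brightness. Mean raw intensity was 186 to 284 with EZH2 siRNA, 291 to 386 with control siRNA and 157 to 410 in untransfected cells, and the share of probes above background was 29.7 to 36.2%, 33.4 to 40.8% and 29.5 to 40.2%. Untransfected array 4 and EZH2 siRNA arrays 1 and 4 had mean signals under 250 and are called the 3 dim arrays. Of 9 markers of SKOV3 carcinoma cells, 8 were above background on all 12 arrays, among them ERBB2, PAX8 and the keratins KRT7, KRT8 and KRT18. Of 6 endothelial markers 3 (CDH5, VWF and CLDN5) were above background on no array, and of 6 fibroblast markers 3 (LUM, PDGFRB and THY1). The other endothelial and fibroblast markers were above background on some arrays but not on all 12, and 2 of the endothelial ones passed the filter. Of 5 leukocyte markers with a probe, PTPRC, CD3E, CD14 and ITGAM were above background on no array. CD68, a lysosomal protein that also marks macrophages, was above background on all 12. Against untransfected cells it was higher on the log2 scale by 1.05 with EZH2 siRNA (adjusted p = 3.09e-05) and by 0.78 with control siRNA (adjusted p = 0.00128), and EZH2 siRNA against control siRNA gave 0.27 (adjusted p = 0.294). Its part in any result below was not tested. The arrays measure RNA pooled over a culture, so fewer cells expressing a gene and less RNA per cell cannot be told apart.

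When EZH2 siRNA was set against control siRNA, none of the 5 tested genes passed. In limma 0 of 5 were called higher or lower (adjusted p under 0.05), where 4.75% of the 11286 genes with a tested probe were called, and 2 of 5 had an unadjusted p under 0.05. These 2 were DLC1 (log2 fold change −0.30) and RAP1GAP (0.26), which moved in opposite directions. No share of all genes is given for that count, so it cannot show an excess. The count was likewise 2 of 5 in each of the other comparisons. The median log2 fold change of the 5 tested genes was 0.04, against −0.02 over all tested genes. Groups did not overlap for 1 of the 5, DLC1, where 11.3% of genes did not overlap, and DLC1 lay lower with EZH2 siRNA. For EZH2 siRNA against untransfected cells 2 of 5 were called higher, RAP1GAP and FBXO32, where 18.1% of genes were called and 9.86% were called higher. The groups did not overlap for RAP1GAP alone, and 17.7% of all genes did not overlap. For control siRNA against untransfected cells 1 of 5 was called higher, RAP1GAP, where 7.6% of genes were called and 4.75% were called higher, and its arrays did not overlap for 2 of 5, RAP1GAP and DLC1, where 15.5% of genes did not. The median of the 5 was 0.27 for EZH2 siRNA against untransfected cells (−0.00 over all genes) and 0.23 for control siRNA against untransfected cells (0.02 over all genes). The 3 comparisons share arrays in pairs, so their values are not independent of each other.

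**Figure D1:**
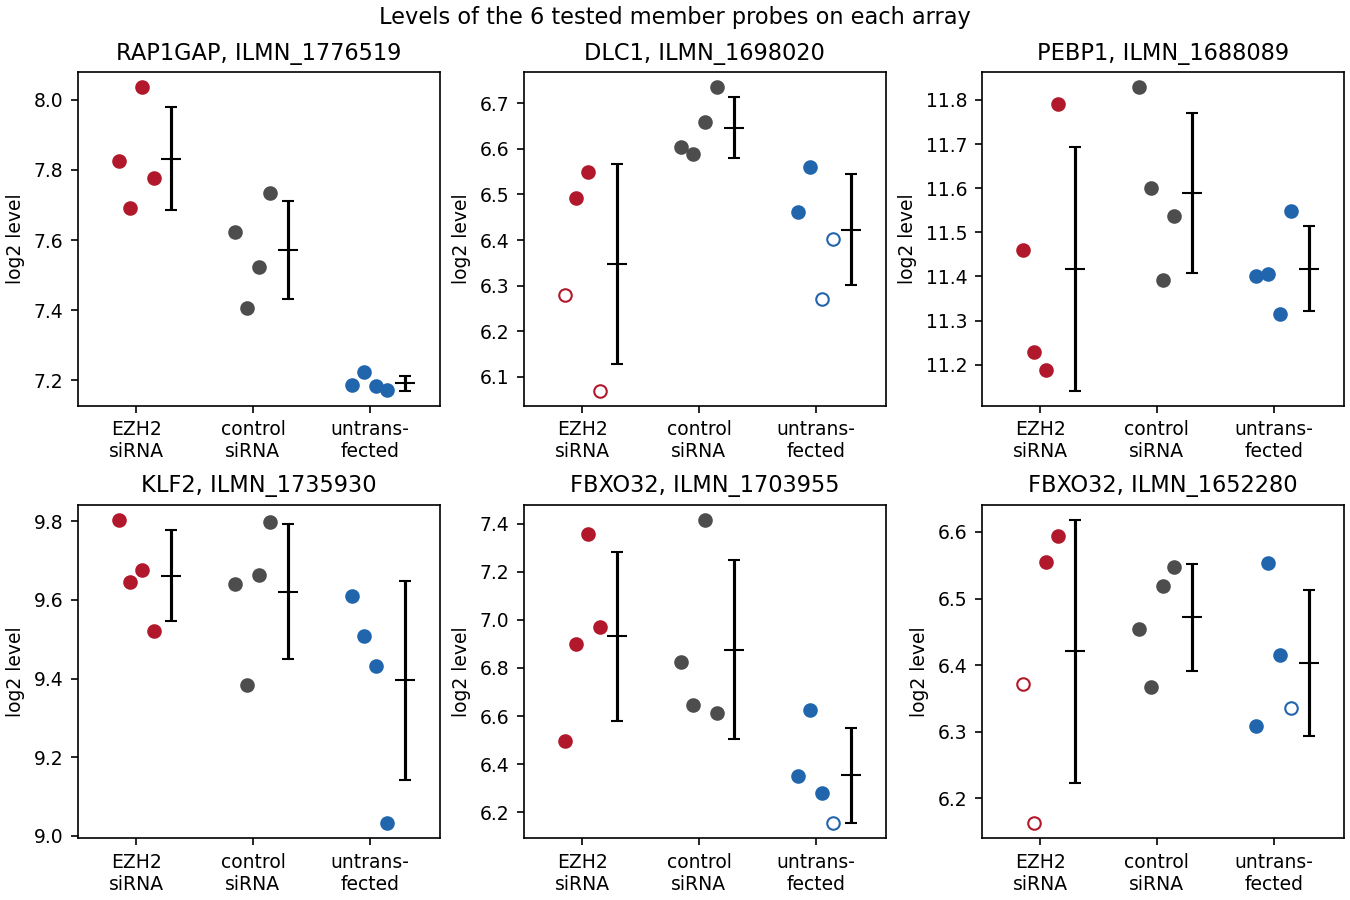
Log2 level of each tested probe on each array, with EZH2 siRNA, control siRNA and untransfected cells from left to right. Filled points were above the array's background and open points were not, and bars give the mean ± SD of 4 arrays. The axes differ between panels. RAP1GAP stands at 7.69 to 8.04 with EZH2 siRNA, 7.41 to 7.74 with control siRNA and 7.17 to 7.22 in untransfected cells.

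RAP1GAP, which switches off the small GTPase Rap1, was the listed gene with the clearest rise over untransfected cells, and the rise was seen with either siRNA. Its probe (ILMN_1776519) had 7.83, 7.69, 8.04 and 7.78 with EZH2 siRNA, 7.62, 7.41, 7.52 and 7.74 with control siRNA, and 7.19, 7.22, 7.18 and 7.17 in untransfected cells. All 8 transfected arrays lay above all 4 untransfected arrays, while EZH2 siRNA and control siRNA overlapped. RAP1GAP was 1.56-fold higher with EZH2 siRNA than in untransfected cells (log2 fold change 0.64, SE 0.11, adjusted p = 0.000594 in limma). With control siRNA it was 1.30-fold higher than in untransfected cells (log2 fold change 0.38, adjusted p = 0.0461). Raw intensity was 127 to 250 with EZH2 siRNA, 184 to 316 with control siRNA and 82.6 to 208 in untransfected cells, so the groups overlapped before normalisation. EZH2 siRNA against control siRNA gave 0.26 (95% confidence interval 0.03 to 0.49, adjusted p = 0.208), which did not pass, and 0.02 (adjusted p = 0.958) when arrays were aligned by their 75th percentile in place of quantile normalisation, the 75th percentile shift.

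The call for EZH2 siRNA against untransfected cells held in 21 of 22 alternatives and was lost under the 75th percentile shift (0.50, adjusted p = 0.119). Without the 3 dim arrays it stood at 0.66 (adjusted p = 0.0108). The call for control siRNA against untransfected cells was lost in 14 of 22. Leaving out untransfected array 1, 2, 3 or 4 gave adjusted p = 0.0881, 0.0759, 0.0873 and 0.0858. Leaving out control array 1, 3 or 4 gave 0.119, 0.0902 and 0.174, and leaving out EZH2 siRNA array 1 or 4 gave 0.0506 and 0.0513, with log2 fold changes of 0.33 to 0.44 over all fits without 1 array.

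RAP1GAP was set beside 18 other genes of Ras and Rap signalling, of which 12 were tested, among them the GTPases RAP1A and RAP1B. In EZH2 siRNA against control siRNA 0 of 12 were called in limma, with 2 at an unadjusted p under 0.05, and in control siRNA against untransfected cells 0 of 12, with 0 at an unadjusted p under 0.05. In EZH2 siRNA against untransfected cells 3 of 12 were called, all higher, where 18.1% of all tested genes were called and 9.86% were called higher. In the other comparisons 4.75% (EZH2 siRNA against control siRNA) and 7.6% (control siRNA against untransfected cells) of all tested genes were called. The counts of called genes in the later lists stand beside the same shares. No such share is given for the counts at an unadjusted p. Of the 3 called with EZH2 siRNA against untransfected cells, RAPGEF1, an exchange factor that loads Rap1 with GTP, rose by 0.65 (adjusted p = 0.00390). SIPA1, another GTPase-activating protein for Rap1, rose by 0.55 (adjusted p = 0.0147). Without the 3 dim arrays neither was called (adjusted p = 0.110 and 0.0877).

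DLC1, named for its deletion in liver cancer, was measured near background. Its tested probe (ILMN_1698020) had 6.28, 6.49, 6.55 and 6.07 with EZH2 siRNA, 6.60, 6.59, 6.66 and 6.73 with control siRNA, and 6.46, 6.56, 6.27 and 6.40 in untransfected cells. The control siRNA arrays lay above every array of the other groups, which overlapped each other. All 4 control siRNA arrays were above background, against 2 of 4 in each of the other groups. EZH2 siRNA against control siRNA gave a log2 fold change of −0.30 (95% confidence interval −0.55 to −0.05, adjusted p = 0.175 in limma), which did not pass. It was −0.63 with each array's own background in the correction (adjusted p = 0.130), −0.18 under the 75th percentile shift (adjusted p = 0.404) and −0.13 without the 3 dim arrays (adjusted p = 0.730), and with 1 array left out it was weakest without EZH2 siRNA array 4 (−0.21, adjusted p = 0.436). The EZH2 siRNA arrays with DLC1 not above background, 1 and 4, were both dim arrays. Of the untransfected arrays, 3 and 4 were not above background, and array 3 was not a dim array. Control siRNA against untransfected cells gave 0.22 (adjusted p = 0.329), and EZH2 siRNA against untransfected cells −0.08 (−0.32 to 0.17, adjusted p = 0.733). A second DLC1 probe (ILMN_1729409) was above background on 0 of 12 arrays.

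PEBP1, also known as Raf kinase inhibitor protein, was above background on all 12 arrays, and no difference in it passed the test. Its probe (ILMN_1688089) had 11.46, 11.23, 11.19 and 11.79 with EZH2 siRNA, 11.83, 11.60, 11.39 and 11.54 with control siRNA, and 11.40, 11.41, 11.32 and 11.55 in untransfected cells. Every pair of groups overlapped. EZH2 siRNA against control siRNA gave −0.17 (95% confidence interval −0.45 to 0.11, adjusted p = 0.554 in limma), control siRNA against untransfected cells 0.17 (−0.11 to 0.45, adjusted p = 0.560), and EZH2 siRNA against untransfected cells −0.00 (−0.28 to 0.28, adjusted p = 0.999). Of 14 genes of the Raf, MEK and ERK cascade and its regulators, 8 were tested. In limma 0 of 8 were called in EZH2 siRNA against control siRNA, with 0 at an unadjusted p under 0.05, and the same 1 gene was called higher in each of the other comparisons. It was PEA15, which binds ERK and holds it in the cytoplasm, at 0.36 for EZH2 siRNA (adjusted p = 0.0330) and 0.38 for control siRNA (adjusted p = 0.0471), each against untransfected cells. The EZH2 siRNA call was lost without untransfected array 2, 3 or 4 or EZH2 siRNA array 1, 3 or 4 (adjusted p 0.0537 to 0.0822). The control siRNA call was lost without any 1 array except EZH2 siRNA arrays 2 and 3 (adjusted p 0.0516 to 0.151). Without the 3 dim arrays PEA15 was not called higher in either comparison.

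FBXO32, also known as atrogin-1, the substrate-binding subunit of an SCF ubiquitin ligase, was higher with EZH2 siRNA than in untransfected cells at 1 of its 3 probes. The brightest (ILMN_1703955) had 6.50, 6.90, 7.36 and 6.97 with EZH2 siRNA, 6.83, 6.65, 7.42 and 6.61 with control siRNA, and 6.35, 6.62, 6.28 and 6.16 in untransfected cells. EZH2 siRNA array 1 lay below untransfected array 2, and control siRNA array 4 just below it, so the groups overlapped. FBXO32 was 1.49-fold higher with EZH2 siRNA than in untransfected cells (log2 fold change 0.58, SE 0.18, adjusted p = 0.0343 in limma). Control siRNA against untransfected cells gave 0.52 (adjusted p = 0.0981), and EZH2 siRNA against control siRNA 0.06 (95% confidence interval −0.32 to 0.43, adjusted p = 0.912).

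The second tested FBXO32 probe (ILMN_1652280) had levels of 6.16 to 6.59 with EZH2 siRNA, 6.37 to 6.55 with control siRNA and 6.31 to 6.55 in untransfected cells. It gave 0.02 for EZH2 siRNA against untransfected cells (−0.22 to 0.26, adjusted p = 0.940 in limma), so the probes disagreed. Over the 12 arrays the levels of these probes correlated at 0.42. The third (ILMN_1760830) was above background on 1 array. The call at the brightest probe was lost in 8 of 21 alternatives. Leaving out untransfected array 1, 3 or 4 gave adjusted p = 0.0619, 0.0698 and 0.0894, and leaving out EZH2 siRNA array 3 or 4 gave 0.107 and 0.0753. Without the 3 dim arrays the log2 fold change was 0.71 (adjusted p = 0.0673), and with each array's own background in the correction it was 1.11 (adjusted p = 0.0278).

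Of 16 genes for SCF subunits and other F-box proteins 12 were tested, and each call was lower. They numbered 1 with EZH2 siRNA against control siRNA, 1 with control siRNA against untransfected cells and 3 with EZH2 siRNA against untransfected cells. SKP2, the F-box protein that marks cell cycle inhibitors for destruction, fell by 0.76 with EZH2 siRNA against untransfected cells (adjusted p = 0.000651 in limma) and by 0.65 against control siRNA (adjusted p = 0.00905). The call against control siRNA was lost without control array 3 (−0.55, adjusted p = 0.0501) and also without the 3 dim arrays. FBXO5, an inhibitor of the anaphase-promoting complex, fell by 1.02 with EZH2 siRNA (adjusted p = 0.000699) and by 0.73 with control siRNA (adjusted p = 0.0173), each against untransfected cells, and EZH2 siRNA against control siRNA gave −0.29 (adjusted p = 0.429). The control siRNA call was lost without untransfected array 1 or control array 1 (adjusted p = 0.0508 and 0.0752).

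KLF2, a zinc finger transcription factor that restrains growth and holds endothelial cells quiescent, was well above background on all 12 arrays. Its probe (ILMN_1735930) had 9.80, 9.64, 9.68 and 9.52 with EZH2 siRNA, 9.64, 9.38, 9.66 and 9.80 with control siRNA, and 9.61, 9.51, 9.43 and 9.03 in untransfected cells. Untransfected array 4 was the lowest of the 12, and every pair of groups overlapped. EZH2 siRNA against control siRNA gave 0.04 (95% confidence interval −0.23 to 0.32, adjusted p = 0.912 in limma), a sign that turned under the 75th percentile shift (−0.30, adjusted p = 0.532). EZH2 siRNA against untransfected cells gave 0.27 (−0.01 to 0.54, adjusted p = 0.185) and passed only with array brightness as a covariate (0.37, adjusted p = 0.0404). It was 0.14 without untransfected array 4 (adjusted p = 0.475) and likewise 0.14 without the 3 dim arrays (adjusted p = 0.613). Control siRNA against untransfected cells gave 0.23 (adjusted p = 0.390), and 0.10 without untransfected array 4.

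Of 16 other KLF factors 10 were tested, and 0 were called with EZH2 siRNA against control siRNA in limma, with 1 at an unadjusted p under 0.05. Against untransfected cells 1 was called higher with control siRNA and 2 with EZH2 siRNA. KLF4, a zinc finger factor of the same family, was 0.95 higher on the log2 scale with EZH2 siRNA (adjusted p = 4.20e-06) and 1.03 higher with control siRNA (adjusted p = 2.40e-06), each against untransfected cells. KLF8 was 0.36 higher with EZH2 siRNA against untransfected cells (adjusted p = 0.0474), a call lost in 18 of 22 alternatives. In place of FOXC1, 15 other forkhead factors were examined, and 10 were tested. With EZH2 siRNA against control siRNA 0 were called in limma, with 3 at an unadjusted p under 0.05, while 3 were called higher and 1 lower in each of the other comparisons. FOXQ1 rose by 1.23 with EZH2 siRNA (adjusted p = 8.12e-07) and by 1.38 with control siRNA (adjusted p = 2.41e-07), each against untransfected cells. FOXM1, which drives mitotic genes, fell by 1.20 with EZH2 siRNA (adjusted p = 8.94e-05) and by 0.71 with control siRNA (adjusted p = 0.0154), each against untransfected cells, and EZH2 siRNA against control siRNA gave −0.49 (adjusted p = 0.124). The control siRNA call was lost without untransfected array 3 or 4 or control array 4 (adjusted p = 0.0559, 0.0597 and 0.0695).

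**Figure D2:**
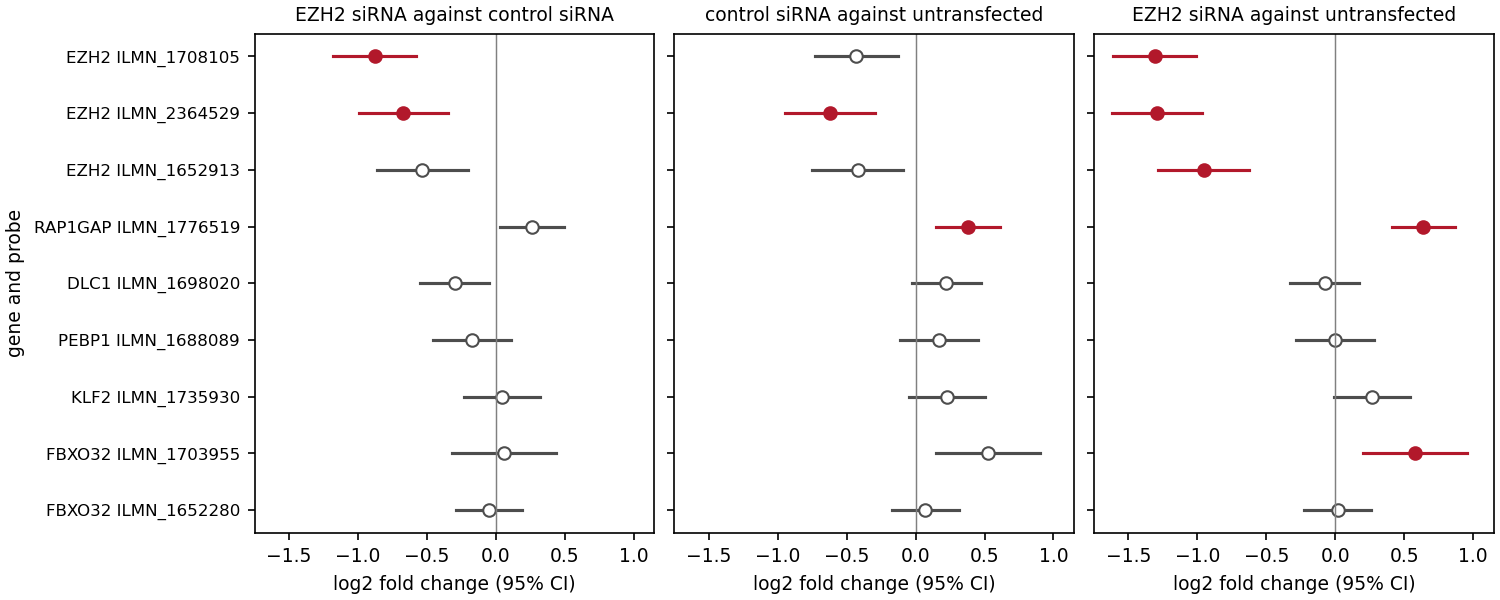
Log2 fold change (points) with its 95% confidence interval (lines) for the EZH2 probes and the tested probes of the listed genes, with a panel for each of the 3 comparisons. Filled red points were called. In the panel of EZH2 siRNA over control siRNA, 2 EZH2 probes were called and 0 of the 6 probes of the listed genes were.

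The receptors lay at or near background. BMPR1B, a type I receptor for bone morphogenetic proteins, and RARB, the beta receptor for retinoic acid, had 2 and 5 probes, and none passed the filter. Over the 9 untested probes of the list, raw intensity was 39.5 to 83.3, where the arrays' backgrounds were 49.5 to 56.5, and 5 of 108 values were above background. Such values bound the RNA level from above and cannot show whether the gene is silent.

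BMPR1B probe ILMN_1888359 was above background on control siRNA arrays 2 and 4 only, and had raw intensities of 54.4 to 65.5 with EZH2 siRNA, 57.8 to 77.8 with control siRNA and 53.7 to 66.4 in untransfected cells. The other BMPR1B probe (ILMN_1801658) was above background on 0 arrays. Of 26 other genes of the bone morphogenetic protein pathway 17 were tested, and 0 were higher and 1 lower with EZH2 siRNA against control siRNA, 3 higher and 2 lower with control siRNA against untransfected cells, and 0 higher and 2 lower with EZH2 siRNA against untransfected cells. BMPR2, the type II receptor that pairs with BMPR1B, fell by 0.87 with EZH2 siRNA against untransfected cells (adjusted p = 0.00471 in limma). EZH2 siRNA against control siRNA gave −0.66 for BMPR2 (adjusted p = 0.0630), which did not pass. The 1 gene called lower in that comparison was BMP6 (−0.41, adjusted p = 0.0401), a call lost in 9 of 22 alternatives.

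RARB probe ILMN_2390526 was the only one of the untested probes whose arrays did not overlap between EZH2 siRNA and control siRNA, 1 of 9 where 3.4% of all untested probes did not overlap. Its raw intensities were 57.4, 63.0, 59.1 and 70.7 with EZH2 siRNA, 50.7, 49.9, 53.4 and 48.2 with control siRNA, and 50.3, 60.2, 53.6 and 49.3 in untransfected cells. On the normalised log2 scale the levels were 6.14 to 6.61 with EZH2 siRNA, 5.82 to 6.01 with control siRNA and 5.87 to 6.10 in untransfected cells. Only EZH2 siRNA array 4 was above background. Every EZH2 siRNA array lay above every control siRNA and untransfected array on the log2 scale, and 1 of 9 probes against untransfected cells compares with 3.03% of all untested probes. Control siRNA against untransfected cells left 0 of 9 without overlap, where 3.08% of all untested probes were.

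In the fit of all 48803 probes without a filter, an alternative, the RARB probe had a log2 fold change of 0.38 against control siRNA (adjusted p = 0.0750 in limma) and of 0.30 against untransfected cells (adjusted p = 0.0982), and was not called. The other 4 RARB probes had log2 fold changes of −0.20 to 0.17 against control siRNA, with levels at background on all arrays except 1. ILMN_2390526 correlated with them at −0.13 to 0.66 over the 12 arrays.

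**Figure D3:**
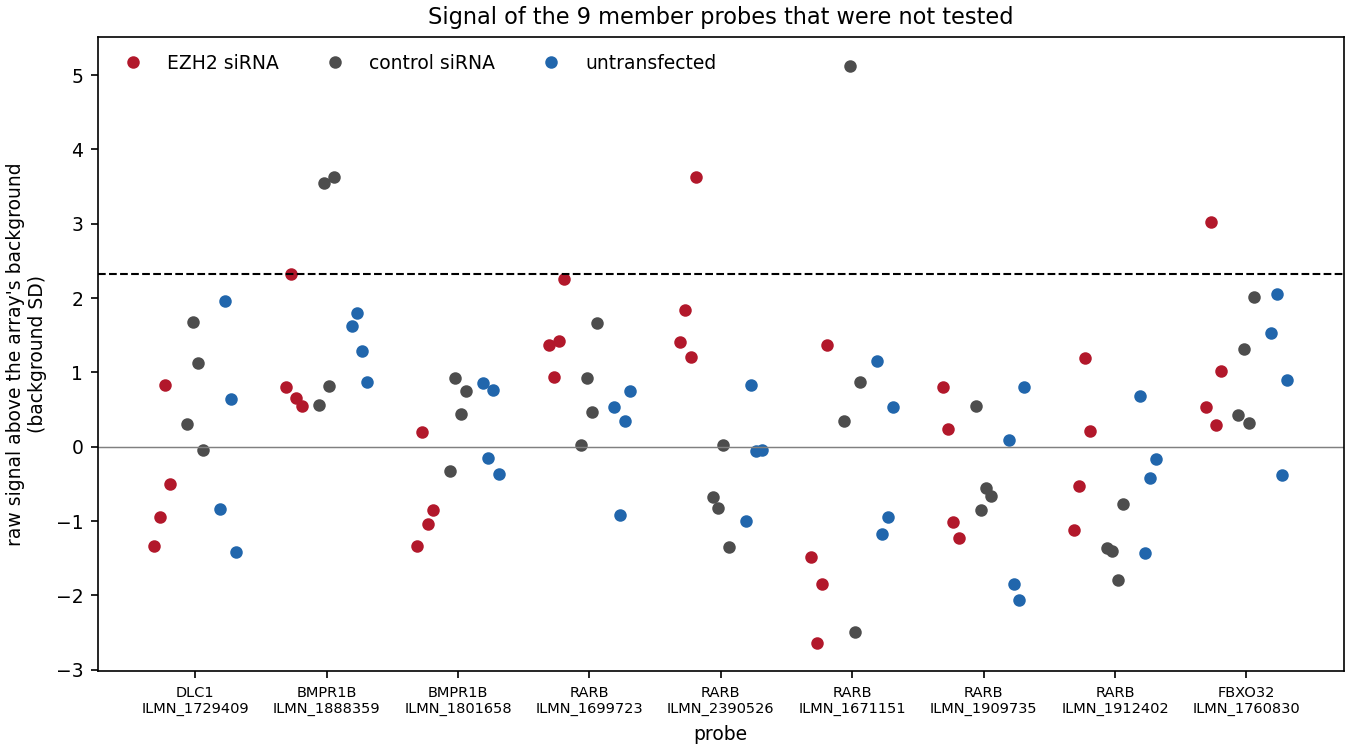
Raw intensity of the 9 untested probes on each array, as the distance above that array's background in background standard deviations, with EZH2 siRNA, control siRNA and untransfected arrays from left to right at each probe. The dashed line at 2.33 is the limit for a value above background, and 5 of 108 points lie over it. At RARB ILMN_2390526 the 4 EZH2 siRNA points lie above all other points of that probe.

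Of 23 other genes of retinoid uptake, synthesis and signalling 13 were tested. With EZH2 siRNA against control siRNA 1 was higher and 0 lower, with control siRNA against untransfected cells 2 higher and 0 lower, and with EZH2 siRNA against untransfected cells 3 higher and 1 lower. RARA, the alpha receptor, rose by 0.55 with EZH2 siRNA (adjusted p = 0.00540 in limma) and by 0.48 with control siRNA (adjusted p = 0.0261), each against untransfected cells, and EZH2 siRNA against control siRNA gave 0.07 (adjusted p = 0.820). The control siRNA call was lost without untransfected array 3 or 4 or control array 1, 3 or 4 (adjusted p 0.0502 to 0.0967). ALDH1A3, which makes retinoic acid, fell by 0.63 with EZH2 siRNA against untransfected cells (adjusted p = 0.00167). Without the 3 dim arrays 0 of 13 were called in each of the 3 comparisons.

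The listed genes were also set beside 35 further genes reported as repressed by EZH2 in other cells, of which 19 were tested. With EZH2 siRNA against control siRNA 1 was higher and 2 lower, with control siRNA against untransfected cells 2 higher and 2 lower, and with EZH2 siRNA against untransfected cells 3 higher and 2 lower. SNCG, a synuclein, rose by 0.54 with EZH2 siRNA against control siRNA (adjusted p = 0.0109 in limma). IGFBP3, which binds insulin-like growth factors, fell by 0.71 in the same comparison (adjusted p = 0.00644), and without the 3 dim arrays its adjusted p was 0.0937. Against untransfected cells IGFBP3 fell by 2.23 with EZH2 siRNA (adjusted p = 1.64e-09) and by 1.52 with control siRNA (adjusted p = 7.58e-07). CDKN1A, the cell cycle inhibitor p21, was 1.39 higher on the log2 scale with EZH2 siRNA (adjusted p = 8.15e-08) and 1.37 higher with control siRNA (adjusted p = 1.48e-07), each against untransfected cells. Of 11 PRC2 genes 10 were tested, and EZH2 was the 1 called with EZH2 siRNA against control siRNA. An unadjusted p under 0.05 in limma was seen in that comparison for 3 of these 10 and for 5 of the 19 further genes. It was also seen for 6 of 13 retinoid, 4 of 17 bone morphogenetic protein and 2 of 12 F-box list genes. Among the calls named from these lists, those of KLF4, FOXQ1, CDKN1A and IGFBP3 and that of FOXM1 with EZH2 siRNA held under the 75th percentile shift. That of FOXM1 with control siRNA did not. Neither did those of the marker CD68 or of RAPGEF1, SIPA1, PEA15, SKP2, FBXO5, KLF8, BMPR2, BMP6, RARA, ALDH1A3 and SNCG.

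**Figure D4:**
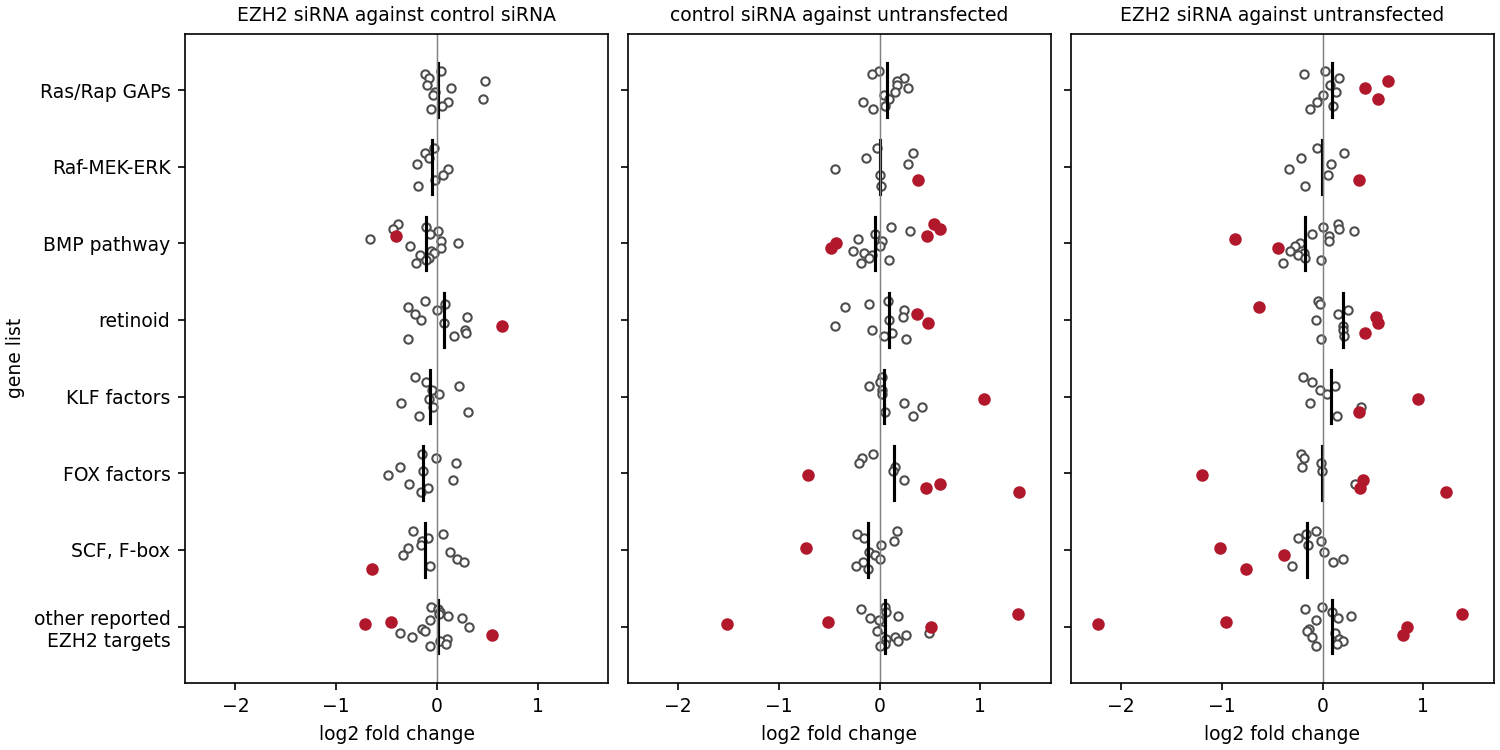
Log2 fold change of each tested gene in the 8 lists set beside the listed genes, by its brightest tested probe, in 3 panels for the 3 comparisons. Red points were called, open points were not, and the bar marks the list's median. The list labelled Ras/Rap GAPs also holds RAP1A, RAP1B and the exchange factor RAPGEF1. The medians lie between −0.18 and 0.20, where those of all tested genes were −0.02, 0.02 and −0.00 from left to right.

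Across the 12 arrays the profiles of the listed genes ran partly together. RAP1GAP correlated with FBXO32 at 0.66 and with KLF2 at 0.65, and FBXO32 with KLF2 at 0.47, while every pair with DLC1 or PEBP1 lay between −0.17 and 0.28. These are correlations of levels over arrays that share 3 groups and differ in brightness. Among 11285 other genes, the profiles most like RAP1GAP were NDRG4 (0.968) and MOB3C (0.967), and those most like FBXO32 were CMTM7 (0.899) and MED28 (0.896). XAB2 (0.943) and LIX1L (0.934) ran closest to KLF2. KLHL28 (0.938) and SHCBP1 (0.888) ran closest to DLC1, and MMAB (0.827) and KIFC2 (0.823) to PEBP1.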

How the data were processed

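Total RNA was labelled with biotin and hybridised to 12 Illumina arrays. The authors deposited a raw intensity for each probe on each array. BeadStudio 3.2 is named in the submitters' processing notes, and its background setting is not stated in the sources used here. They also deposited log2 values, which equalled the quantile-normalised log2 of the raw table to within 5e-05. Groups came from the sample titles. Of the sample columns, 0 went unused.

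With limma 3.58.1 in R 4.3.3, normexp (offset 50) removed background from the raw values and arrays were then set to common quantiles. The offset shrinks fold changes of dim probes. The number of arrays limits the precision. A probe was tested if above background (p under 0.01, from the most frequent signal of the array and the mirrored spread below it) on at least 4 of 12 arrays, which left 18177 of 48803 probes. Detection p-values, on which the filter was first planned, are not among the columns. All 12 arrays entered 1 linear model of 3 groups (lmFit and eBayes). P-values were adjusted by the Benjamini-Hochberg method over all tested probes, and calls were made at an adjusted p under 0.05. The platform annotation pairs 28098 probes with 1 symbol and 13 with several and leaves 20692 without, and a gene is represented by its brightest tested probe. A list of genes set beside DLC1 is not reported here. The listed genes and gene lists were chosen with earlier results of these data known. Named genes are EZH2, the 9 listed genes, up to 3 called genes per list and comparison by size of change (not all are given), and the 2 most correlated genes of each tested listed gene. CD68 was named after its values were seen. Alternatives covered scaling, background correction, filter, samples, covariates and arrays left out. The alternative with each array's own background also used an offset of 16 in place of 50, and these 2 changes were not run apart. Those for the genes of the lists were chosen after seeing the data. The fit was tested on simulated data with planted log2 changes of 1 or 2 in either direction and no differences in array brightness. Smaller changes were not simulated, so that test does not bear on them. Figures were drawn with matplotlib 3.10.9.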

Additional observations from a re-analysis of the deposited data

Results flagged for a closer look

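No probe of the listed genes had an array standing apart from the other 3 of its group. Of 141 groups of 4 arrays examined, over the probes of the listed genes, EZH2 and the named genes of the lists, 3 held such an array by Dixon's test, where chance gives about 1 in 20. ACVR1, a type I receptor of the bone morphogenetic protein pathway, had a log2 level of 8.94 on control siRNA array 2, where the nearest of the other 3 arrays had 9.33. ALDH1A3, of the retinoid list, had 8.90 on the same array, with the nearest at 9.03. FBXO5, of the F-box list, had 8.30 on control siRNA array 1, with the nearest at 8.74.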

How the results depend on the processing

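EZH2 siRNA against control siRNA called 0 listed genes under all 23 alternatives, and the EZH2 call held in all 22 run for it (log2 fold change −1.40 to −0.68, adjusted p 0.000567 to 0.0206). Control siRNA against untransfected cells called 0 in place of 1 under the 75th percentile shift, the deposited log2 table, each array's own background and without the 3 dim arrays, and 0 to 1 with 1 array left out. EZH2 siRNA against untransfected cells called 0 in place of 2 under the 75th percentile shift, 1 with no filter, with probes above background on all 12 arrays or without the 3 dim arrays, and 1 to 2 with 1 array left out. With probes above background on all 12 arrays FBXO32 and DLC1 were not tested. With array brightness as a covariate EZH2 siRNA against untransfected cells called 3, RAP1GAP, FBXO32 and KLF2. Numbers of probes called for EZH2 siRNA against control siRNA were 731 in the main setting, 144 under the 75th percentile shift, 408 with each array's own background, 170 without the 3 dim arrays and 285 to 1290 with 1 array left out. For control siRNA against untransfected cells they were 1119, 310 under the shift and 679 to 1190 with 1 array left out. For EZH2 siRNA against untransfected cells they were 2919, 485 under the shift, 1072 without the dim arrays and 1903 to 3201 with 1 array left out. The share of calls that were higher was 6.25%, 81.3% and 36.5% under the shift for these comparisons, against 43.2%, 59.3% and 52.1% in the main setting, and 33.8% for EZH2 siRNA against control siRNA with each array's own background. Signs of changes that were not called turned for KLF2 in EZH2 siRNA against control siRNA (−0.30 under the shift, −0.038 to 0.10 with 1 array left out) and for FBXO32 (−0.087 to 0.24 with 1 array left out). For EZH2 siRNA against untransfected cells they turned for DLC1 (0.051 under the shift, 0.091 without the dim arrays, −0.14 to 0.017 with 1 array left out) and PEBP1 (−0.125 to 0.076 with 1 array left out). With the replicate block, control siRNA against untransfected cells called 0 listed genes (RAP1GAP 0.38, adjusted p = 0.0639), and the probes called numbered 767, 1070 and 2908 in the order above. Same-numbered arrays correlated at −0.38 to 0.46 in their deviations from the group means, with 5 of 12 pairs over 0.1. In 4 of the 12 the array of the same number correlated best. With 4 arrays a group that differ in brightness, these correlations cannot decide whether the number pairs the arrays. Of 42 results for named genes of the lists 31 lost the call under at least 1 alternative, 30 of them under the shift and 19 without the dim arrays, and 0 changed sign. Slide as a block was not run because the files used here name no slide. The causes were not tested.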
